A study of Mus musculus with 4 samples.

Results

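The genes followed here are 10 imprinted genes, H19, Dlk1, Meg3, Rian, Mest, Peg3, Plagl1, Grb10, Ddc and Ndn, in the injured heart of the newborn mouse. They were taken by gene symbol from the 32285 features of 4 Visium matrices, and each symbol matched 1 Ensembl ID. In Visium, the RNA of a thin slice of tissue is caught on a slide printed with barcoded spots, and each spot covers several cells or parts of cells. All animals were ICR mice in which a cooled probe was held to the left ventricular apex for 5 seconds on postnatal day 1, and no genetic change is given in the labels. Hearts were taken 1, 4, 7 and 14 days later (d1, d4, d7 and d14), that is at postnatal days 2, 5, 8 and 15, and 1 section of 10 µm was read at each time. No uninjured heart was analysed here, so age and time since the injury cannot be told apart, and 1 section a time gives no test between times. The working name of the set, genes that fall after birth, described 8 of its 10 members by d14 under the rule of size given below. The members were chosen with earlier results of these data known, so that count is no independent check of the name.

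Imprinted genes are transcribed mainly from the allele of 1 parent. Many of them act on growth before birth, and a decline of such genes after birth is known from several mouse organs. Paternally expressed members such as Dlk1, Mest, Peg3, Plagl1 and Ndn, and maternally expressed ones such as H19, Meg3, Rian and Grb10, are found on several chromosomes, often in clusters that share a control region. The reads here carry no allele, so only the summed level of both alleles was measured.

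On GRCm38 (GENCODE vM21), H19 lies on chr7:142575529-142578143 (minus strand) and Ndn on chr7:62346569-62350262 (plus strand). Peg3 lies on chr7:6703892-6730431 (minus strand). Dlk1 (chr12:109452823-109463336), Meg3 (chr12:109541001-109571726) and Rian (chr12:109603940-109661716) follow each other on the plus strand of chromosome 12. Ddc (chr11:11814101-11898144) and Grb10 (chr11:11930508-12038683) are neighbours on the minus strand of chromosome 11. Mest lies on chr6:30723547-30748465 and Plagl1 on chr10:13060504-13131694, both on the plus strand. Mest overlaps Copg2 on the opposite strand, Ddc overlaps the antisense gene 1700042O10Rik, and Meg3 and Ndn each overlap an antisense noncoding gene. Whether the counting used strand is not given in the sources used here, so reads of such partners may be shared.

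The transcribed regions of 4 members also contain microRNAs, which were not measured here. RefSeq (GRCm38.p6) places 13 mature microRNAs inside them, 2 in exon sequence of H19, 3 in exon sequence of Meg3, 2 in an intron of Mest and 6 in introns of Rian, and the 13 have 13 different seeds. One sequence, or a pair of arms, is printed for each host to show what the host genes carry, within introns for Rian and Mest. The seed (bases 2 to 8) is in capitals, and the sequences run 5′ to 3′. They lie at chr7:142577112-142577133 and chr7:142577078-142577099 (minus strand, H19), chr12:109563710-109563731 (Meg3), chr12:109618305-109618326 (Rian) and chr6:30741314-30741336 (Mest), the last 3 on the plus strand.

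mmu-miR-675-5p: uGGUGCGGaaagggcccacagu
mmu-miR-675-3p: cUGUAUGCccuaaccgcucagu
mmu-miR-770-5p: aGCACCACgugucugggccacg
mmu-miR-370-3p: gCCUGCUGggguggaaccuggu
mmu-miR-335-5p: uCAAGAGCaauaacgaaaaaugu

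Grb10 and Ddc are the neighbours whose levels both fell, as given below, and the 250 bases before an annotated start of each (RefSeq, GRCm38.p6, minus strand) are printed with CpG dinucleotides in capitals. The Grb10 window, chr11:12037421-12037670, holds 40 CpG, a number that 1.31% of 32851 such windows reach. The Ddc window, chr11:11898145-11898394, holds 1 CpG, which 92.1% of the windows reach, and the median window has 6. Each gene has another annotated start, whose window holds 8 CpG for Grb10 and 4 for Ddc, and which start was used in these sections was not measured.

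Grb10: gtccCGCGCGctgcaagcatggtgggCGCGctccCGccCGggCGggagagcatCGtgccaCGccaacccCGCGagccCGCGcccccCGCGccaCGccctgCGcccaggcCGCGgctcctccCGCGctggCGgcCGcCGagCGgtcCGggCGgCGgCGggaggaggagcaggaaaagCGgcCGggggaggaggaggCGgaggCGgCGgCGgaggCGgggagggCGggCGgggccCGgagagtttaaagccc
Ddc: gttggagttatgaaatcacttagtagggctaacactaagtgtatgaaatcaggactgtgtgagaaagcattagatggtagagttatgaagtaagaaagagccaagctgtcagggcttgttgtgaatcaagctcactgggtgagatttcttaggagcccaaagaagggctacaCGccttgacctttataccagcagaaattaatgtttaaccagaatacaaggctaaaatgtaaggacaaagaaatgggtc

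The letters GGGGCCCC, known as a motif bound by the Plagl1 protein and identical on both strands, were searched in 14 such windows of 9 members. They stood in 1 window, of Peg3, and in 0.889% of all windows.

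After spots with fewer than 500 UMIs (counted RNA molecules) were left out, the sections held between 445 spots (d1) and 1175 spots (d14). The median was 7810, 7998 and 8028 UMIs per spot at d1, d4 and d7, and 3770 at d14. Barcodes mark positions on the array, and 247 of them were listed in all 4 libraries. The d7 section stood apart: it held 1 UMI of Xist and 460 of the Y-linked Eif2s3y, against 158 to 341 and 0 in the other sections, and its mitochondrially encoded share was 11.6% against 5.17% to 8.54%. The 10 heart muscle markers used as a check of the tissue were detected in every section and summed to between 61023 and 89849 CPM (UMIs per 1e+06 UMIs, after haemoglobin and mitochondrially encoded genes were taken out). Markers of lung epithelium, a neighbouring tissue, summed to 0 at d1 and d4, 0.18 at d7 and 0.46 at d14.

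Over whole sections, the 10 genes reached their lowest level at d14 in 10 of 10 cases. The highest level stood at d1 for 7 members and at d4 for Meg3, Mest and Ndn. In the order of the days, 7 members were lower at every step, and all 10 were lower at d7 than at d4 and lower at d14 than at d7. These counts were taken without regard to counting intervals and include Rian, whose intervals overlapped throughout. How many of all genes had the same orders was not counted. The median log2 ratio of d7 to d4 was -0.67 for the members and -0.20 for all tested genes, so lower levels in that step were common. For d14 against d7 the median of all tested genes was -0.02. Summed over the members, the level was 1885 CPM (d1), 1796 (d4), 998 (d7) and 386 (d14). A difference is written as rose or fell only where the ratio was at least 2 or at most 0.5, its exact 95% counting interval left out 1, and the gene reached 20 CPM in 1 of the compared sections. Rian never reached that level, so 9 members could be counted. In pooled spots, fewer cells of a type and less RNA per cell cannot be told apart.

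**Figure D1:**
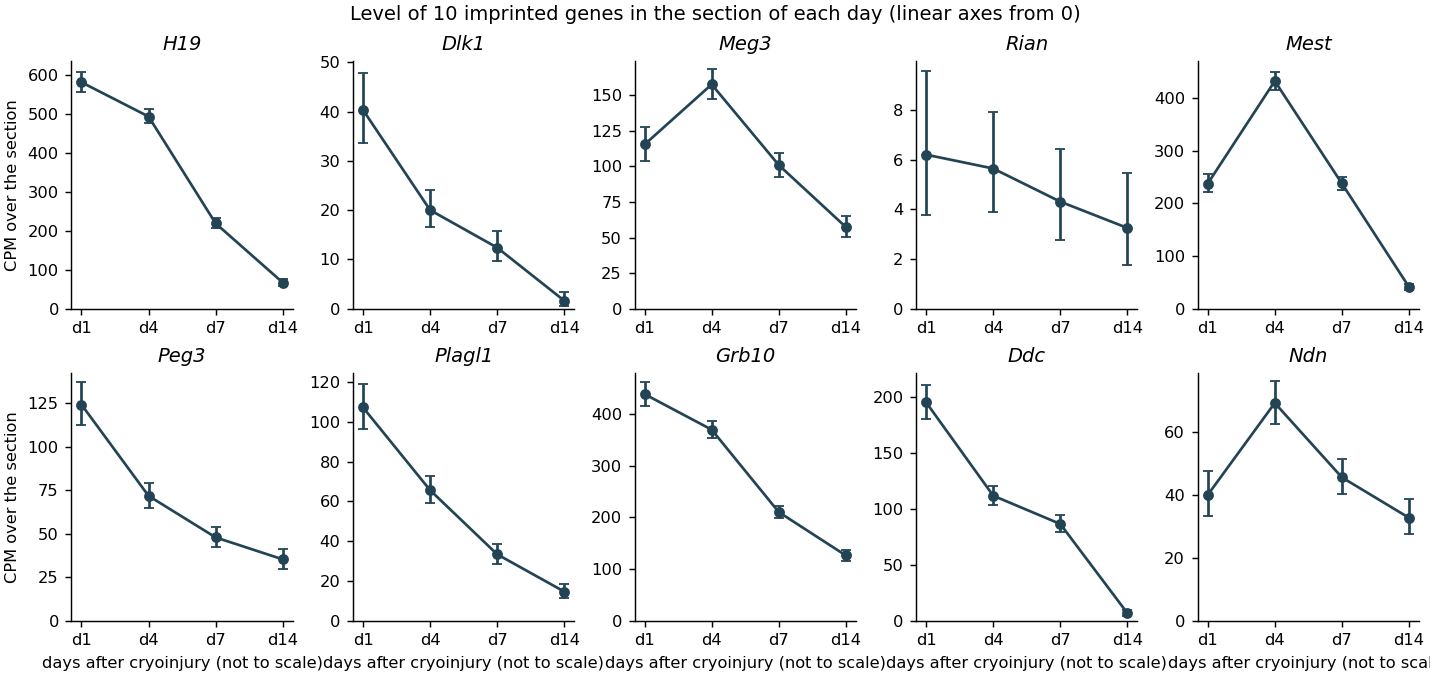
Level of each of the 10 genes in the section of each day, in CPM on linear axes that start at 0, with days drawn at equal steps. Points are 1 section each and bars are exact Poisson 95% intervals, which cover counting error only; all 10 genes are lowest at d14, while Meg3, Mest and Ndn peak at d4.

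H19, a noncoding RNA of the growth cluster that also holds Igf2, was measured at 581 CPM (d1), 493 (d4), 219 (d7) and 67.1 (d14). The d1 and d4 sections were high, and the 4 counting intervals did not overlap. Against d1 the level fell 2.65-fold by d7 (95% interval 2.47 to 2.85) and 8.65-fold by d14 (7.64 to 9.83), while d4 was 1.18-fold lower. H19 was also the 1 member counted as lower at d7 against d4, 2.25-fold (2.11 to 2.41), beside 1.51% of 7196 genes tested. That call was lost with TMM scaling, another way to set the library totals (log2 ratio -0.96) and with means over spots (-0.97).

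The genes of the chromosome 12 cluster differed. Dlk1, a transmembrane protein with EGF-like repeats that is also shed, was at 40.3 CPM (d1), 20.01 (d4), 12.4 (d7) and 1.63 (d14). Its level was highest at d1 and rested on 7 UMIs at d14. It fell 2.01-fold by d4 (1.56 to 2.61), 3.25-fold by d7 (2.41 to 4.42) and 24.8-fold by d14 (11.7 to 62.9), and was the 1 member to fall by d4, a call lost outside the matrix-rich spots described below (log2 ratio -0.88). Meg3, a long noncoding RNA, had 115 CPM (d1), 158 (d4), 101 (d7) and 57.4 (d14). The d4 section was the highest and d14 the lowest, and the intervals of d1 and d7 overlapped. Meg3 fell 2.01-fold by d14 (1.71 to 2.37), close to the limit of the rule, and with TMM scaling its log2 ratio of -0.94 no longer met it. Rian, a noncoding RNA that hosts small RNAs, gave 20, 33, 24 and 14 UMIs at d1, d4, d7 and d14. Its levels of 6.20, 5.64, 4.31 and 3.25 CPM had intervals that overlapped throughout.

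Mest, which encodes a protein of the hydrolase fold family, was at 237 CPM (d1), 432 (d4), 238 (d7) and 41.4 (d14). The d4 section stood above the others, d1 and d7 had nearly the same level, and d14 stood below. Its ratio to d1 was 1.82 at d4 (1.68 to 1.98), short of the rule, and it fell 5.74-fold by d14 (4.87 to 6.79). At d14 it was 5.75-fold lower than at d7 (4.91 to 6.76).

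The zinc finger genes Peg3 and Plagl1 had the same order of days. Peg3 was at 124 CPM (d1), 71.8 (d4), 47.9 (d7) and 35.3 (d14). Plagl1 was at 107, 65.7, 33.4 and 14.6 CPM on the same days. Each was highest at d1 and lower at every later section, with intervals that did not overlap between days. Peg3 fell 2.59-fold by d7 (2.22 to 3.04) and 3.52-fold by d14 (2.91 to 4.27). Plagl1 fell 3.21-fold by d7 (2.68 to 3.86) and 7.33-fold by d14 (5.59 to 9.75).

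Grb10, an adaptor protein that restrains insulin and IGF receptor signalling, was at 438 CPM (d1), 369 (d4), 210.1 (d7) and 126 (d14). Its neighbour Ddc encodes aromatic L-amino acid decarboxylase, of which an imprinted isoform is known in the mouse heart. Ddc was at 195 CPM (d1), 112 (d4), 86.6 (d7) and 6.74 (d14), the last from 29 UMIs. Both genes were lower at each later day, and their counting intervals did not overlap between days. Grb10 fell 2.09-fold by d7 (1.93 to 2.26) and 3.47-fold by d14 (3.14 to 3.84). Ddc fell 2.26-fold by d7 (2.002 to 2.55) and 29.0-fold by d14 (19.99 to 43.7), and d14 was 12.8-fold below d7 (8.83 to 19.4). The counts are per gene, so the isoforms of Ddc and of Grb10 cannot be told apart.

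Ndn, a member of the MAGE family studied mainly in neurons, was at 40.0 CPM (d1), 69.3 (d4), 45.6 (d7) and 32.8 (d14). The d4 section was the high one, and the intervals of d1 overlapped those of d7 and d14. Its ratio to d1 was 1.73 at d4 (1.42 to 2.13), 1.14 at d7 (0.919 to 1.42) and 0.819 at d14 (0.640 to 1.05), so it met the rule at no time.

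Counted together, 1 of 9 members fell by d4, 6 fell by d7 and 8 fell by d14, and 0 rose. Among all genes tested against d1, 1.44% were counted as lower at d4, 2.85% at d7 and 6.07% at d14, and 4.69%, 3.45% and 7.32% as higher. The median log2 ratio of the 10 members was -0.24 at d4, -1.12 at d7 and -2.17 at d14, beside medians over all tested genes of 0.17, -0.03 and -0.06. These 3 comparisons share the d1 section. The members were chosen with earlier results of these data known, so the shares of all genes are a description beside them and no check. For d14 against d7, 4 of 8 members that reached the level, H19, Mest, Plagl1 and Ddc, were counted as lower, beside 3.51% of all genes. Each count rests on 1 section a day, d7 from an animal that differed from the others in its sex-linked genes; the part of that difference in these values was not tested.

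The share of spots with a UMI was lower at each later day for Ddc, while that for H19 was highest at d4. A Ddc UMI was found in 263 of 445 spots at d1, 325 of 662 at d4, 271 of 774 at d7 and 28 of 1175 at d14. After each spot was thinned to 2500 UMIs, the share of spots that held a Ddc UMI was 37.3% (d1), 23.5% (d4), 14.7% (d7) and 1.53% (d14), with 40, 3, 3 and 131 shallower spots left out. Unthinned, these shares were 59.1%, 49.1%, 35.0% and 2.38%. For H19 the thinned shares were 57.8%, 62.2%, 30.7% and 11.8%, and the unthinned ones 85.6%, 90.9%, 60.2% and 16.7%. How far RNA strays between spots was not measured, so these shares are of spots with a UMI and not of spots whose cells express the gene.

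The 53 other imprinted genes measured were counted in the same way. At d4, 1 of 20 that reached the level was lower, at d7 1 of 20 and at d14 3 of 21, beside 1.44%, 2.85% and 6.07% of all genes, and 0 were higher at any of these days. Their median log2 ratios to d1 were 0.14, -0.08 and -0.22. Igf2, the growth factor gene beside H19, was at 507 CPM (d1), 465 (d4), 264 (d7) and 169 (d14), and fell 3.00-fold by d14. The receptor gene Igf2r, whose product clears Igf2, was at 247, 221, 113 and 115 CPM and fell by d7 and by d14. Slc38a4, an amino acid transporter gene, was at 63.0, 70.8, 41.5 and 26.0 CPM and fell by d14. Snrpn, which encodes a splicing protein, was at 87.8, 36.8, 49.7 and 75.5 CPM and was counted as lower at d4 and not at d7 or d14.

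In each section, matrix-rich spots were the cluster with the largest share of UMIs from 22 matrix genes, among them Col1a1, Postn and Tnc. Clusters came from Leiden, a graph method that groups spots of like expression. The 10 members and the 53 other imprinted genes listed were not used to make the clusters. The matrix-rich spots numbered 27 (d1), 52 (d4), 54 (d7) and 167 (d14), or 6.07%, 7.85%, 6.98% and 14.2% of spots. The 22 genes took 1.78%, 4.72%, 5.79% and 2.26% of UMIs in them, against 0.499%, 0.867%, 0.788% and 0.694% in all other spots. Spot positions were not used here, so these spots are a group by expression and not a mapped scar. Inside a section, a gene with at least 20 UMIs was counted by the same ratio and interval.

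The number of members higher in matrix-rich spots than in the rest was largest at d7. In the d1 section, 0 of 10 members were higher there and 1, Mest, was lower, beside 11.2% of all genes higher and 4.33% lower. At d4, 4 of 10 were higher (Meg3, Rian, Peg3 and Ndn) and Dlk1 and Ddc were lower, beside 11% higher and 7.78% lower. In the d7 section, 6 of 10 were higher (H19, Dlk1, Meg3, Rian, Peg3 and Ndn) and Ddc was lower, beside 11.7% higher and 5.35% lower. At d14, 2 of 8 with enough UMIs were higher (Meg3 and Ndn) and 0 lower, beside 9.46% higher and 1.31% lower. The median log2 ratio of the 10 members was -0.31 (d1), -0.03 (d4), 1.59 (d7) and 0.70 (d14), and that of all tested genes 0.21, 0.06, 0.20 and 0.19. Whether these counts differ between the days was not tested.

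**Figure D2:**
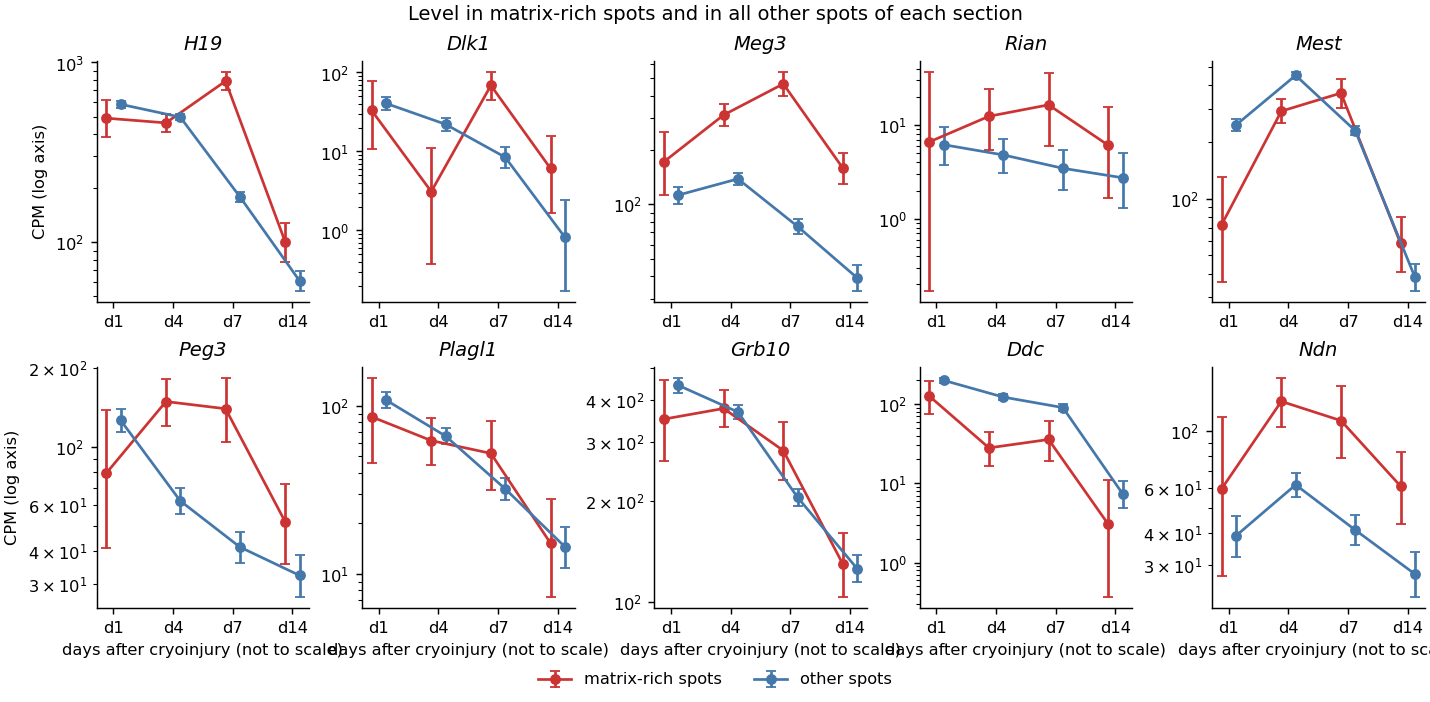
Level of each gene in matrix-rich spots and in all other spots of each section, in CPM on log axes, with days drawn at equal steps and exact Poisson 95% intervals as bars. H19, Dlk1 and Meg3 stand highest above the other spots at d7, and Ddc lies below them at every day.

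Meg3 and Ndn were higher in matrix-rich spots than in the rest at d4, d7 and d14, and at d1 neither met the rule. Meg3 had 172 CPM in matrix-rich spots against 113 in the rest at d1, 312 against 138 at d4, 464 against 75.5 at d7, and 158 against 39.2 at d14. The ratios were 1.53 (0.985 to 2.28), 2.26 (1.92 to 2.64), 6.14 (5.10 to 7.38) and 4.04 (3.11 to 5.24). At d14, 42.1% of all Meg3 UMIs lay in the matrix-rich 14.2% of spots. Ndn had 59.6 CPM in matrix-rich spots against 39.0 in the rest at d1, 130.5 against 61.7 at d4, 109.8 against 41.1 at d7, and 60.9 against 27.7 at d14, with ratios of 2.11 to 2.67 at the last 3 times. The Meg3 ratio was largest at d7, and the intervals of the Ndn ratios overlapped across those times.

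H19 was counted as higher in matrix-rich spots in the d7 section. Its level in matrix-rich spots was 490 CPM (d1), 461 (d4), 788 (d7) and 101 (d14), and in the rest 585, 497, 179 and 61.1. The ratio was 0.837 (0.654 to 1.06), 0.929 (0.821 to 1.05), 4.40 (3.84 to 5.03) and 1.65 (1.23 to 2.17) in the order of the days, and passed the rule at d7. At d14 it passed with a Leiden resolution of 1.2 (log2 ratio 1.02) or with the 10% of spots richest in matrix genes (1.79). In the d7 section, 23.5% of all H19 UMIs lay in the 54 matrix-rich spots. Outside them H19 fell 3.27-fold by d7, while inside them its ratio of d7 to d1 was 1.61 (1.24 to 2.11).

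Dlk1 in matrix-rich spots stood at 33.1 CPM (d1), 3.11 (d4), 68.6 (d7) and 6.09 (d14), and in the rest at 40.7, 22.1, 8.45 and 0.822. These rest on 5, 2, 25 and 4 UMIs inside and 125, 115, 44 and 3 outside. At d4 the ratio was 0.141 (0.0168 to 0.519) and at d7 it was 8.12 (4.76 to 13.6). The 25 UMIs at d7 came from 11 of 54 spots, with at most 6 in 1 spot. The d4 section had the low ratio and the d7 section the high one.

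Peg3 had 79.5 CPM in matrix-rich spots against 127 in the rest at d1, 149 against 62.3 at d4, 140.0 against 41.5 at d7, and 51.8 against 32.3 at d14. Its ratio was 0.628 (0.322 to 1.11), 2.39 (1.89 to 3.02), 3.37 (2.44 to 4.59) and 1.60 (1.06 to 2.36) in the order of the days. Peg3 was thus higher inside at d4 and d7. Rian was higher inside at d4 (2.59, 1.01 to 5.91, from 8 UMIs inside and 25 outside) and at d7 (4.76, 1.55 to 12.5, from 6 and 18 UMIs). The d4 call of Rian was lost without spots that held a skeletal muscle UMI (log2 ratio 1.34).

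Ddc had a lower level in matrix-rich spots than in the rest at every day, and was counted as lower at d4 and d7. It had 126 CPM in matrix-rich spots against 199 in the rest at d1, 28.0 against 122 at d4, 35.7 against 90.1 at d7, and 3.05 against 7.40 at d14. The ratio was 0.229 at d4 (0.135 to 0.364) and 0.396 at d7 (0.209 to 0.684), and the call was not met at d1 (0.633) or, with 2 UMIs inside, at d14 (0.412). Mest was lower inside at d1, with 72.8 CPM in matrix-rich spots from 11 UMIs and 245.3 in the rest, a ratio of 0.297 (0.148 to 0.534). That call was lost with a Leiden resolution of 0.5 (log2 ratio -0.64) and with the 10% of spots richest in matrix genes (-0.95). Its ratio was 0.646 at d4, 1.58 at d7 and 1.51 at d14.

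Grb10 and Plagl1 were counted on neither side at any time. Grb10 had 351 CPM in matrix-rich spots against 442 in the rest at d1, 377 against 368 at d4, 283 against 205 at d7, and 129.5 against 125.5 at d14. Its ratios lay between 0.793 and 1.38. Those of Plagl1 lay between 0.794 and 1.63. A ratio that misses the rule does not show that the levels were equal.

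The course over time was also computed inside and outside the matrix-rich spots. Outside them, Peg3 was the 1 member that fell by d4, beside 1.25% of all genes, 6 fell by d7, beside 2.82%, and the same 8 as over the whole section fell by d14, beside 6.67%. Inside them, by d4 Dlk1 and Ddc fell (6.78% of all genes) while Mest and Ndn rose (6.2%), and by d7 Ddc fell (7.56%) while Meg3 and Mest rose (5.67%). By d14 H19, Dlk1, Plagl1, Grb10 and Ddc fell inside (11% of all genes). Mest inside rose 3.99-fold by d4 (2.18 to 8.13) and 4.97-fold by d7 (2.69 to 10.2), from the 11 UMIs at d1. At d14 against d7, all members but Rian and Ndn were counted as lower inside, 8 of 9 tested, beside 8.1% of 7818 genes. The d1 matrix-rich group held 27 spots and 151037 counted UMIs, which limits these ratios. The genes of largest fold in it were Spp1, Gpnmb and Il1rn, and Eln was at 199 CPM inside and 256 outside. Those of the d4 group were Tagln, Cthrc1 and Eln, of d7 Wfdc18, Eln and Ccl21a, and of d14 Gpnmb, Ccl21a and Thbs4. The ratios inside thus compare groups of unlike expression, and the part of that in them was not tested.

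Markers of several cell types moved with the matrix-rich spots. The 10 fibroblast markers, all detected, summed to 1179 CPM inside (d1), 3093 (d4), 5575 (d7) and 7304 (d14), against 825, 1337, 1621 and 3779 outside. All 10 were higher inside at d4, d7 and d14, while at d1 7 were higher and 3, Tcf21, Gsn and Islr, were lower. Without Gsn, which had 447 CPM inside at d7 and 3536 at d14, the other 9 summed to 874, 2597, 5127 and 3768 CPM inside, against 474, 1014, 1365 and 1495 outside. The 10 heart muscle markers summed to 37885, 26411, 31686 and 64799 CPM inside, against 76248, 65306, 77315 and 94355 outside. The 8 atrial markers summed to 2079, 18924, 3887 and 7908 CPM inside, against 1435, 5440, 347 and 1653 outside, with Fgf12 at 0 at d1 and Bmp10 at 0 at d7 and d14. Nppa, which encodes atrial natriuretic peptide, made up most of these sums. The other 7 summed to 99.3, 444, 436 and 192 CPM inside, against 112, 139.5, 60.5 and 38.9 outside, and members of the list such as Stard10 at d4 (9.32 inside and 17.9 outside) went the other way. The sum of the 10 macrophage markers was also higher inside, at 3761, 1283, 1375 and 1650 CPM against 248.6, 193, 283 and 693. Mrc1 went the other way at d14 (36.6 inside and 38.9 outside). The 10 smooth muscle and pericyte markers summed to 2556, 4820, 2031 and 3760 CPM inside, against 1808, 1803, 1950 and 2569 outside. The 10 epicardial markers summed to 166, 419, 211 and 178 CPM inside, against 97.3, 136, 98.6 and 44.1 outside. Members of both lists went the other way, such as Rgs5 (270 inside and 352 outside) and Aldh1a2 (57.5 and 60.4) at d4. The part of these cell types in the ratios of the members was not tested.

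At d7, 7 of 10 skeletal muscle markers had a higher level in the matrix-rich spots than in the rest, against 0 of the 8 detected at d1, 3 of 9 at d4 and 6 of 10 at d14. Mylpf, a fast skeletal myosin light chain gene, had 71 UMIs and Myh3, the embryonic myosin heavy chain gene, 47 UMIs in that section, spread over 33 spots of which 13 were matrix-rich. In the other sections, 8 or 9 spots held a UMI of either gene. The myogenic factor genes Myod1 and Myog had 6 and 5 UMIs in the d7 matrix-rich spots and 0 in the rest of that section. All 10 markers were detected at d7 and d14, while Tnnt3 and Actn3 were at 0 at d1 and Myh3 at d4. Ckm, a creatine kinase gene that heart muscle also expresses, took most of the list's sum, which was 1490, 755, 1589 and 2686 CPM inside, against 3070, 1851, 2599 and 3838 outside. The other 9 summed to 26.5, 123, 483 and 99.0 CPM inside, against 55.6, 94.0, 62.4 and 110.5 outside. At d7 Ckm, Mybpc2 and Pvalb were lower inside. The sums with Gsn, Nppa and Ckm left out were chosen after the values were seen.

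In these 33 spots, of which 13 were matrix-rich, 3 of 10 members were counted as higher than in the other spots, beside 3.46% of all genes. H19 had 479 CPM in them and 207 in the other spots of d7, a ratio of 2.31 (1.89 to 2.80). Meg3 had 283 and 92.7 CPM, a ratio of 3.05 (2.33 to 3.94), and Ndn 91.6 and 43.5 CPM, a ratio of 2.10 (1.29 to 3.26). Peg3 had a ratio of 1.80 (1.08 to 2.83), and the ratios of Dlk1, Rian, Mest, Grb10, Plagl1 and Ddc lay between 0.964 and 1.53 with intervals that held 1. The 33 spots gave 9.43% of the H19 UMIs and 12.1% of the Meg3 UMIs of the section.

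Without those 33 spots, the same members were counted in the matrix-rich spots of d7. The ratios were 4.11 for H19, 9.87 for Dlk1, 5.66 for Meg3, 5.12 for Rian, 3.46 for Peg3 and 2.53 for Ndn, and these 6 were again counted as higher, beside 11% of all genes. Ddc was again the 1 lower member, at 0.457, beside 5.44%. Against d1, the same 6 members as with all spots fell by d7 over the section, beside 3.02% of all genes, with H19 at 207 CPM at d7 and 586 at d1. A spot with no UMI of Mylpf or Myh3 may still hold such tissue at this depth.

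**Figure D3:**
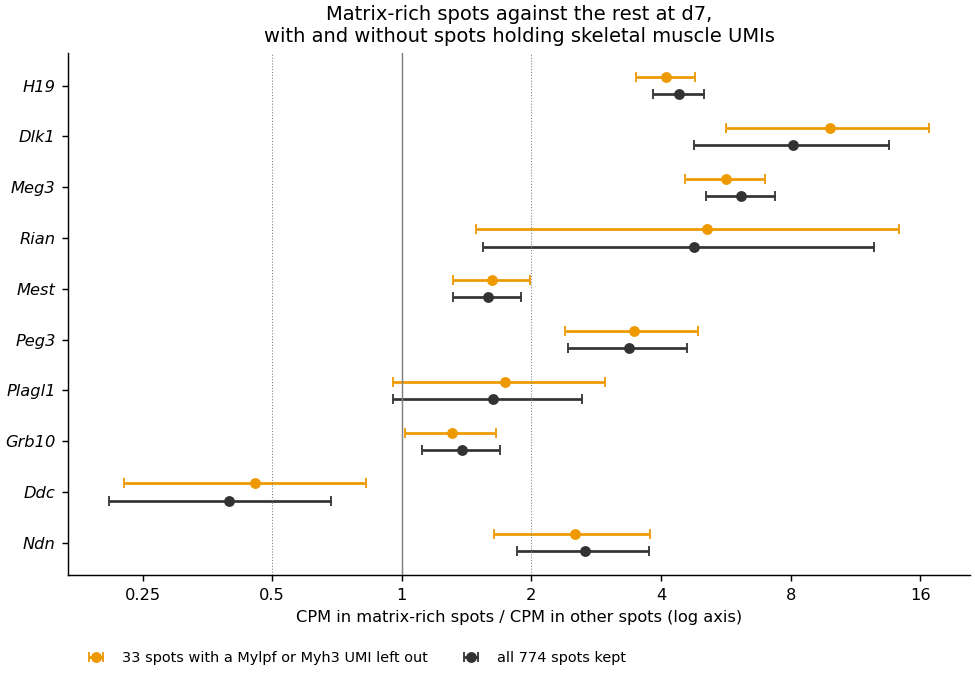
Ratio of the CPM in matrix-rich spots to that in the other spots of the d7 section for each gene, on a log axis, without the 33 spots that held a Mylpf or Myh3 UMI (orange) and with all 774 spots (black). Bars are exact 95% counting intervals and dotted lines mark 0.5 and 2; H19, Dlk1, Meg3, Rian, Peg3 and Ndn lie above 2 and Ddc below 0.5 either way.

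Over the 27 clusters of the 4 sections (7, 7, 7 and 6), the matrix-rich cluster was the highest of its section for 0 (d1), 4 (d4), 8 (d7) and 5 (d14) members. How many of all genes were highest in it, or in the clusters named below, was not counted. The highest cluster was taken without regard to counting intervals. Dlk1 and Rian had 4 UMIs each in the matrix-rich cluster of d14. At d7 the Mest interval there, 303 to 430 CPM, overlapped that of the next cluster, 271 to 390. At d1, a cluster of 43 spots whose leading genes were Dcpp1, Myl1 and Plvap was the highest for H19, Dlk1, Meg3, Mest, Peg3, Plagl1 and Ndn. H19 reached 1856 CPM in it, from 497 UMIs, and 262 in the lowest cluster, which was led by Aldh6a1, Klhdc10 and Nmrk2. The 8 atrial markers summed to 3670 CPM in that 43-spot cluster and to 358 without Nppa, the largest sums among the d1 clusters. At d4 a cluster of 74 spots led by Dcpp1, Plvap and Nppa was the highest for H19 (841 CPM) and Mest (581 CPM), and its atrial sum was 17140 CPM, or 355 without Nppa. The matrix-rich cluster of d4 had larger atrial sums, 18924 and 444 CPM, with H19 at 461 CPM and Mest at 290.5. At d14 a cluster of 132 spots led by Cntn2, Npr3 and Plvap was the highest for H19 (210.2 CPM), Mest (60.1) and Plagl1 (36.0), with an atrial sum of 4177 CPM, or 90.1 without Nppa. There too the matrix-rich cluster had larger sums, 7908 and 192 CPM, with H19 at 101 CPM and Mest at 57.9. Over whole sections, the atrial marker Sln had 2, 2, 4 and 1 UMIs at d1, d4, d7 and d14. Myl7 had 147, 75, 8 and 6 UMIs and Bmp10 20, 2, 0 and 0, while Myl4 had 105, 559, 210 and 68. The part of atrial tissue in the levels of the members was not tested.

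Among members with a UMI in every cluster of a section, Grb10 spanned the smallest range over clusters on each of the 4 days. The highest Grb10 cluster exceeded the lowest 1.39-fold (d1), 1.197-fold (d4), 2.002-fold (d7) and 1.11-fold (d14). For H19 the same ratios were 7.07, 2.84, 9.26 and 8.43. Ddc was lowest in the matrix-rich cluster at d1, d4 and d14, and at d7 in a cluster of 20 spots led by Gm4841, Iigp1 and H2-Aa, with 25.2 CPM. Its highest cluster at d7 held 212 spots and 137 CPM, and Ddc, which was not used to form the cluster, led it.

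**Figure D4:**
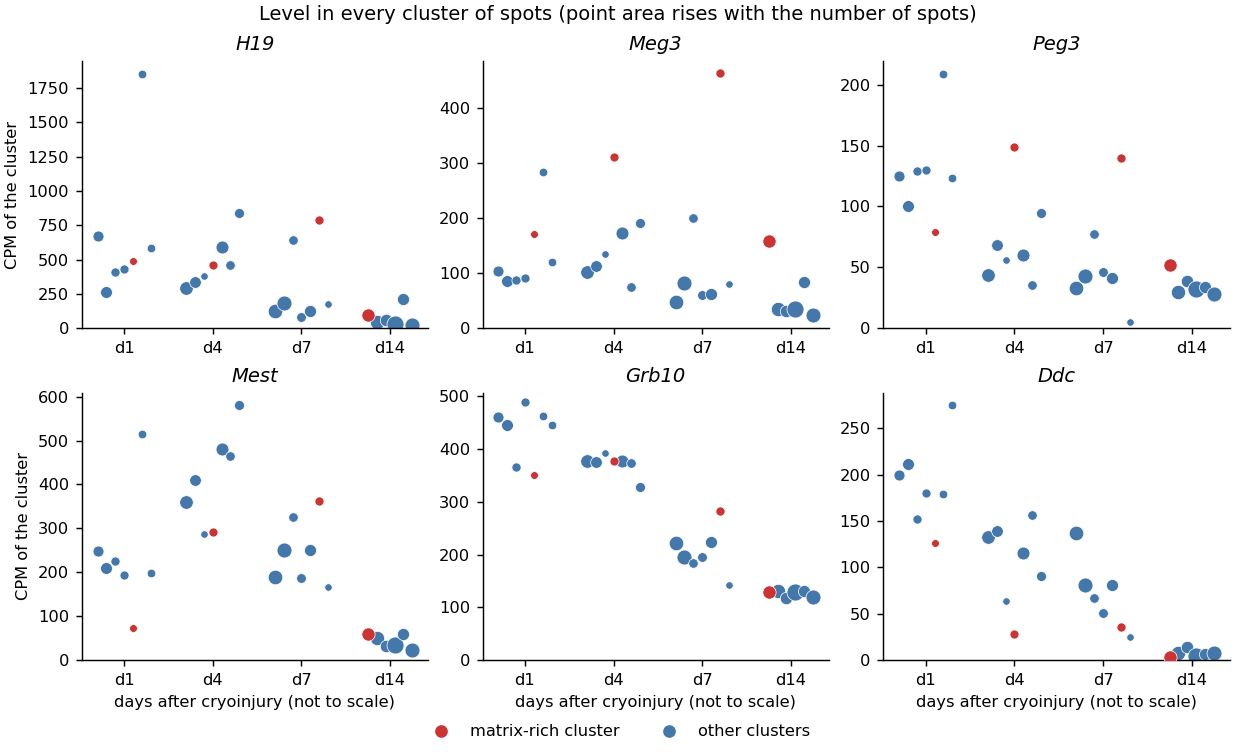
Level of 6 genes in each of the 27 clusters of spots, in CPM on linear axes from 0; each point is 1 cluster, its area grows with the number of spots, and the matrix-rich cluster of each day is red. H19, Meg3 and Peg3 have their top point outside the matrix at d1 and in it at d7, Grb10 spans 1.11-fold to 2.002-fold within a day, and Ddc is low in the red cluster.

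As a description, each member with at least 200 UMIs was set beside 5447 genes by the Pearson correlation of log2(CPM + 10) over the 27 clusters, which share sections and depth and are not independent. The genes most like H19 were Igf2 (0.93), Ncam1 (0.93) and Pafah1b2 (0.89). Those most like Meg3 were Rrbp1, Ssr4 and Fkbp10 (0.89 to 0.90), and those most like Mest were Stmn1, Cox8a and Tmpo (0.93 to 0.94). For Ddc they were Naca, Tnni1 and Impa2 (0.92 to 0.93), for Ndn Ptn, Myl4 and H3f3b (0.90 to 0.92), and for Peg3 Scd2, Myl9 and Nap1l1 (0.83 to 0.92). For Plagl1 they were Grb10, Ncam1 and Cox6a1 (0.88 to 0.91), for Grb10 Dnmt1, Cox6a1 and Palld (0.91 to 0.92), and for Dlk1 Zwint, Rpl23 and Ears2 (0.81 to 0.86).

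These values hold the course over days as well as differences between clusters of 1 section. With the mean of each section taken out, Igf2 had 0.83 with H19 and Rrbp1 0.88 with Meg3, whereas Cox6a1 had 0.30 with Grb10 and Ears2 0.33 with Dlk1. Between members, the within-section value was 0.82 for H19 with Meg3 and 0.81 for Meg3 with Ndn. Against the summed fibroblast markers it was 0.90 for Meg3, 0.76 for H19, 0.74 for Peg3 and Ndn, and -0.44 for Ddc. Against the heart muscle markers it was 0.64 for Ddc and -0.80 for Meg3 and Ndn, and for Grb10 and Mest it was -0.18 and 0.04. For Rian, Peg3 and H19 it was -0.66, -0.58 and -0.48, and for Plagl1 and Dlk1 -0.20 and -0.17. Ddc also had 0.45 with the summed endothelial markers. By this measure, Meg3 and Ndn, and less so Rian, Peg3 and H19, had high levels where heart muscle markers were low. Ddc had high levels where those markers were high.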

How the data were processed

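The authors deposited raw UMI counts per gene and spot for each section, counted per the file headers by Space Ranger 1.3.0 and placed on mm10 per the submitters' processing notes, which also name Seurat 4.1.1 without a role. The rule behind the listed spots is not stated. Of the 32285 features, 32158 have their Ensembl ID in GENCODE vM21.

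Spots with at least 500 UMIs were pooled per section, and levels are CPM over UMIs without 8 haemoglobin and 13 mitochondrially encoded genes. Intervals (95%) were exact Poisson for levels, exact conditional binomial (Clopper-Pearson) for ratios and cover counting error only. The calls were computed for every gene. Those between days were tried on counts simulated with Poisson error alone, without spread between spots or animals. The calls of matrix-rich spots against the rest were not tried in this way. Spots were clustered per section with scanpy 1.11.5 (Leiden, igraph 0.11.9, resolution 0.8, 15 principal components, 15 neighbours, 2000 variable genes), without the members and the 53 other imprinted genes listed. TMM factors came from edgeR 4.0.16. No doublet caller was run, since a spot holds several cells. With 1 section a time there is no replicate and no p-value.

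All 10 members were named, with Igf2 and the other imprinted genes called against d1. For likeness the 3 genes with the largest correlation were named, and for clusters the 3 of largest fold with at least 50 UMIs. Members and lists were chosen with earlier results of these data known. Alternatives covered the total used for scaling, spot and gene minimums, means over spots, left-out spots and the choice of the matrix-rich cluster.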

Additional observations from a re-analysis of the deposited data

Results flagged for a closer look

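Dlk1 stood on opposite sides of the matrix-rich spots in neighbouring sections. Its log2 ratio of matrix-rich spots to the rest was -2.83 at d4, from 2 UMIs inside and 115 outside, and 3.02 at d7, from 25 UMIs inside and 44 outside. The difference between these days was not tested, since each day has 1 section. At d7 the log2 ratio was positive with and without spots that held a Mylpf or Myh3 UMI, at ratios of 9.87 without them and 8.12 with them.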

How the results depend on the processing

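No paired analysis was possible because each time point has 1 section and no replicate to pair. Of 154 recomputed counts and medians, 148 were labelled the same, 6 moved and 0 reversed. A count was labelled the same within 1.5 times, and a median inside an interval set by the ranks of the 10 members. That interval is a spread between members and not counting error. It was wide, from -4.63 to -0.93 for d14 against d1, so a median could shift far and keep its label. The moved ones were counts of lower members. At d4 against d1, the count of 1 became 0 with a 50 CPM minimum. At d7 against d4, the count of 1 became 2 with CPM over all genes, 0 with TMM scaling, 0 with means over spots, 3 without the matrix-rich spots and 2 without spots that held a Mylpf or Myh3 UMI. The cause was not tested. TMM scaling shifted all log2 ratios by -0.19 at d4 against d1 and by 0.21 at d7 against d4, and by 0.02 to 0.06 in the other comparisons. Of 770 recomputed ratios of single members, 36 moved past their counting interval and 0 called ones changed sign; of 308 called values 11 were lost and 10 others gained. The 50 CPM minimum took Dlk1 out of every whole-section comparison with d1.

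Depth limits Rian, with 14 to 33 UMIs a section, Dlk1 at d14, with 7 UMIs, and every ratio to the d1 matrix-rich spots, which numbered 27. Each day is 1 heart, so the spread between animals is unknown, and the d7 heart differed from the others in its sex-linked genes.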

Other observations

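Some other imprinted genes were also high in matrix-rich spots; they are named here after their values were seen. At d1, 2 of 28 tested were higher there, at d4 7 of 32, at d7 7 of 29 and at d14 2 of 27, against 11.2%, 11%, 11.7% and 9.46% of all genes. Mirg, a noncoding gene downstream of Rian, had 20.2 CPM in matrix-rich spots and 6.92 in the rest at d4, and 30.2 and 2.69 at d7, with 11 and 14 UMIs at d7. Its d7 ratio was 11.2 (4.61 to 26.6). Gatm, which encodes an enzyme of creatine synthesis, had ratios of 5.55 (d1), 5.26 (d4), 3.02 (d7) and 1.95 (d14, not counted). Without the 33 spots of d7 that held a Mylpf or Myh3 UMI, the d7 count was 5 of 29, and Gatm, at a ratio of 2.17 (0.901 to 4.52), and Cdkn1c, at 1.52 (0.639 to 3.12), were no longer counted. Sgce, the sarcoglycan epsilon gene, was higher at d1 (2.37), d7 (2.47) and d14 (2.24) and had a ratio of 1.63 at d4. Snrpn had 1 UMI in the matrix-rich spots of d7 and 276 in the rest, at 2.74 and 53.0 CPM, while its ratio was 0.592 at d1, 0.606 at d4 and 0.628 at d14.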
